A study of Ovis aries with 14 samples.

Results

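The receptors for vascular endothelial growth factor and 3 other genes of the vessel lining were described in the hypothalamus of fetal sheep after triclosan, an antibacterial agent of soaps and other consumer goods. The 6 genes were KDR, FLT1, VEGFA, CD93, PECAM1 and TIE1. They were found by the gene name in the scanner files or by the symbol matched to it, which gave 12 of 15008 array probes and 6 of 1025 names: 4 probes for KDR, 2 each for FLT1, VEGFA and TIE1, and 1 each for CD93 and PECAM1. A further 3 probes, named only by their descriptions as receptor 1 for vascular endothelial growth factor, are shown beside FLT1 and are not counted among the 12.

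The array set held 4 groups of fetuses at about 130 days of gestation, each infused for 2 days. Fetal triclosan (n = 4) received 250 µg/day into the fetal circulation, and fetal vehicle (n = 4) received vehicle by that route. Maternal triclosan (n = 3) received 100 µg/kg/day into the ewe, and maternal vehicle received vehicle into the ewe. Of 3 deposited maternal vehicle arrays, the third equalled 0.6 times the first plus 0.4 times the second at 15744 of 15744 spots, within a relative tolerance of 1e-04, so it was left out and maternal vehicle had n = 2. Each array stands for a fetus as far as the labels tell, and the sex and breed are not stated there. The doses of the routes were given on different scales, and the dose that reached the fetus from the ewe was not analysed here.

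Vascular endothelial growth factor A, encoded by VEGFA, is released by neural and glial cells and draws new vessels into the growing brain. It binds KDR (VEGF receptor 2), the main signalling receptor of endothelial cells, and FLT1 (VEGF receptor 1), which binds it more tightly, signals less and also exists in a soluble form that holds the ligand back. TIE1 and its partner TEK form the angiopoietin receptor system of stabilised vessels, PECAM1 is an adhesion molecule of endothelial junctions, and CD93 is a surface receptor of endothelial and myeloid cells.

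Each probe is 60 bases long, and several pairs overlap, so that probes of a pair are not independent measurements. The sequences of the probes on which the results turn are given below, 5′ to 3′, as they stand in the scanner files, with the bases shared by both probes of a pair in capitals. Read in the one frame without a stop codon and set against the known receptor proteins, KDR probes 1 and 2 code for part of the extracellular region, and KDR probes 3 and 4 and FLT1 probes 1 and 2 for part of the intracellular tail. KDR probes 3 and 4 share no base.
KDR probe 1: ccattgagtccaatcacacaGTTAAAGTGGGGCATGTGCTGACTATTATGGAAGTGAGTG
KDR probe 2: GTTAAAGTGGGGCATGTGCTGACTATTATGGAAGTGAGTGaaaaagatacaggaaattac
KDR probe 3: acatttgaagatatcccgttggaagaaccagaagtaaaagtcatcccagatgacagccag
KDR probe 4: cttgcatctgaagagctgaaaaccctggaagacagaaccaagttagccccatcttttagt
FLT1 probe 1: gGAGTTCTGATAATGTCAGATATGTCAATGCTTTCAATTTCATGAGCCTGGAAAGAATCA
FLT1 probe 2: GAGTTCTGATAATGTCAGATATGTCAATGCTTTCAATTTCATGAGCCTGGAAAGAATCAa
CD93: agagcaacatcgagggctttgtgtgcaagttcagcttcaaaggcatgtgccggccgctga

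Values are the log2 of the scanner's processed signal after each array was scaled to a common 75th percentile, and the levels of different probes are not ranked, since probes differ in how strongly they bind. A gap between probes is used only to compare arrays. The median processed signal lay between 236.1 and 307.4 on fetal triclosan arrays, 315.4 and 380 on fetal vehicle arrays, 284.3 and 375.8 on maternal triclosan arrays, and 350.9 and 353.9 on maternal vehicle arrays. The share of spots well above background was 83.29% to 90.13% per array, with 0 saturated. The 13738 probes that were well above background on at least 3 arrays were fitted together with limma, and an adjusted p (Benjamini-Hochberg over all of them) under 0.05 counted as a call. All 12 member probes passed that filter. Of the 13 arrays used, those numbered 1, 2 and 3 lay on slides 1, 2 and 3, fetal vehicle 4 also lay on slide 3, and fetal triclosan 4 lay alone on a slide with a scan day of its own.

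The direct arm asks what differed in the hypothalamus when triclosan entered the fetus itself. KDR fell by every one of its 4 probes, CD93 fell by its single probe, and FLT1 fell by 1 of its 2 probes. VEGFA, PECAM1 and TIE1 gave no call. In all, 6 of 12 member probes were called lower and 0 higher, where 11.6% of all 13738 probes were called lower and 18.3% were called in either direction. Those called higher were 921 of all 13738. Every fetal triclosan array lay below every fetal vehicle array for those same 6 probes, an order that 12.7% of all probes with full data showed. The members' median log2 difference was -0.75, beside a median of -0.09 over all probes.

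KDR probe 4 had 5.81, 5.77, 5.98 and 6.37 on the fetal triclosan arrays, against 7.60, 7.63, 7.46 and 7.51 on the fetal vehicle arrays. The groups were more than 1 log2 unit apart at their nearest values, and the vehicle arrays were close together. The log2 difference was -1.57 (SE 0.17, limma adjusted p = 0.00187), a signal 2.97-fold lower with triclosan. KDR probe 3 had 4.72, 5.06, 4.96 and 5.73 on the fetal triclosan arrays, against 7.21, 7.24, 6.91 and 6.90 on the fetal vehicle arrays. Its groups did not overlap either, and fetal triclosan 4 was the least low of the treated arrays for both probes. Its log2 difference was -1.95 (SE 0.24, limma adjusted p = 0.0019), or 3.87-fold lower.

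The overlapping probes over the extracellular region moved less. KDR probe 1 had 5.64, 5.62, 6.40 and 5.50 on the fetal triclosan arrays, against 6.45, 6.68, 6.47 and 6.63 on the fetal vehicle arrays. KDR probe 2 had 5.71, 5.73, 6.45 and 5.83 with fetal triclosan, against 6.67, 6.66, 6.68 and 6.65 with fetal vehicle. Fetal triclosan 3 lay just below the vehicle arrays for both probes, and the other 3 treated arrays lay well below. The log2 differences were -0.77 (SE 0.18, limma adjusted p = 0.0147) and -0.74 (SE 0.16, adjusted p = 0.00985), or 1.7-fold and 1.67-fold lower. These calls were lost with normexp background correction, at -0.33 and -0.29, and with quantile normalisation, at -0.50 and -0.48, while KDR probes 3 and 4 and CD93 kept theirs under all 12 other ways of processing and without any 1 array.

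The gap between the KDR probe pairs was compared over arrays as a description, with no test. The mean of probes 3 and 4 minus the mean of probes 1 and 2 was -0.41, -0.26, -0.95 and 0.38 on the fetal triclosan arrays, against 0.84, 0.77, 0.61 and 0.56 on the fetal vehicle arrays. It was 0.29, -0.25 and 0.80 on the maternal triclosan arrays, against 0.97 and 0.99 on the maternal vehicle arrays. The groups of each arm did not overlap, and the triclosan arrays spread more widely than the vehicle arrays in both arms. Of all single probes, 12.7% in the direct arm had every triclosan array below every vehicle array. With only 3 and 2 arrays in the indirect arm, 19.2% did. No such share was taken for gaps between probes. In the direct arm the gap restates the unlike falls of the pairs given above and is no further result. Probe 3 followed probe 4 across the 13 arrays (r = 0.99) and probe 1 followed probe 2 (r = 0.97), as a description of arrays that share slides and groups. Whether the pairs read different transcripts was not tested.

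**Figure D1:**
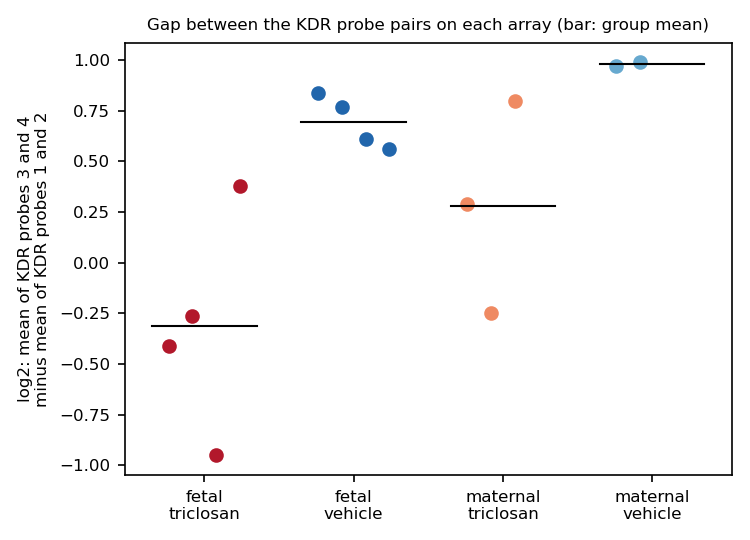
The gap between the KDR probe pairs (mean log2 signal of probes 3 and 4 minus that of probes 1 and 2, vertical axis) is plotted for each array by group, with a bar at the group mean. Fetal triclosan arrays lie between -0.95 and 0.38, below the fetal vehicle arrays at 0.56 to 0.84, and maternal triclosan arrays lie below the maternal vehicle arrays.

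CD93 had 6.33, 4.83, 6.75 and 7.04 on the fetal triclosan arrays, against 8.64, 8.33, 8.09 and 8.26 on the fetal vehicle arrays. All 4 treated arrays were below all 4 vehicle arrays, and they were spread over a range much wider than that of the vehicle arrays (SD 0.98 with fetal triclosan, 0.23 with fetal vehicle). The log2 difference was -2.09 (SE 0.39, limma adjusted p = 0.00641), or 4.27-fold lower. Leaving out any 1 array gave -2.36 to -1.62. Since CD93 is also made by myeloid cells, the myeloid list is given beside it. Of 6 measured markers, 1 was called lower and 0 higher, where 11.6% of all probes were called lower. The summed signal of the 6 was 2749 to 3241 with fetal triclosan and 2258 to 3404 with fetal vehicle. The marker called lower was ITGAM, the integrin alpha chain CD11b, with a log2 difference of -0.95 (SE 0.28, limma adjusted p = 0.0377). It fell short in 4 of 12 other ways of processing and in 8 of 13 fits without 1 array. The part of myeloid cells in the CD93 result was not tested.

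FLT1 probes 1 and 2 were measured near the limit of the arrays. Probe 2 had 3.86, 3.39, 3.96 and 2.87 on the fetal triclosan arrays, none of them well above background, against 5.07, 4.51, 4.85 and 4.39 on the fetal vehicle arrays, all well above it. The groups did not overlap. Each treated array was also taken at the higher of its own signal and the lowest signal well above background of any probe on it. The signal was then 1.75-fold lower with triclosan. That lowest signal is not the limit of this probe, which at 4.48 on maternal triclosan 1 was not well above background. So 1.75-fold is no firm lower bound. The fitted log2 difference was -1.18 (SE 0.25, limma adjusted p = 0.0095). With normexp correction it was -0.04 and with the authors' deposited values -0.38, and neither passed, so the call for FLT1 was made with the processed signal and not with these values.

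FLT1 probe 1 differs from probe 2 by a shift of 1 base. It had 4.57, 3.79, 3.76 and 1.91 with fetal triclosan, against 5.05, 4.61, 4.54 and 4.55 with fetal vehicle, and it was well above background on 1 of the 4 treated arrays. Fetal triclosan 1 lay within the vehicle range and fetal triclosan 4 far below it. The fitted log2 difference was again -1.18, with a larger error (SE 0.45, limma adjusted p = 0.0886), and the probe passed only when fetal triclosan 1 was left out (adjusted p = 0.0378).

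The 3 probes described as VEGF receptor 1 gave no call in the direct arm. Probes 3 and 4, described as the soluble receptor, had log2 differences of -0.37 (SE 0.47) and -0.56 (SE 0.34), and probe 5 had -0.57 (SE 0.28), which passed only without fetal triclosan 3 (-0.81, limma adjusted p = 0.0443). Probe 3 had its highest values on fetal triclosan 1 (7.56) and maternal triclosan 1 (8.32), whereas its overlapping partner probe 4 lay within the range of its own other arrays there (5.06 and 4.98). The partners agreed poorly over the 13 arrays (r = 0.33), and the 95% interval was -1.40 to 0.67 for probe 3 and -1.31 to 0.18 for probe 4. Both intervals hold 0 and also falls of the size of KDR probes 1 and 2.

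**Figure D2:**
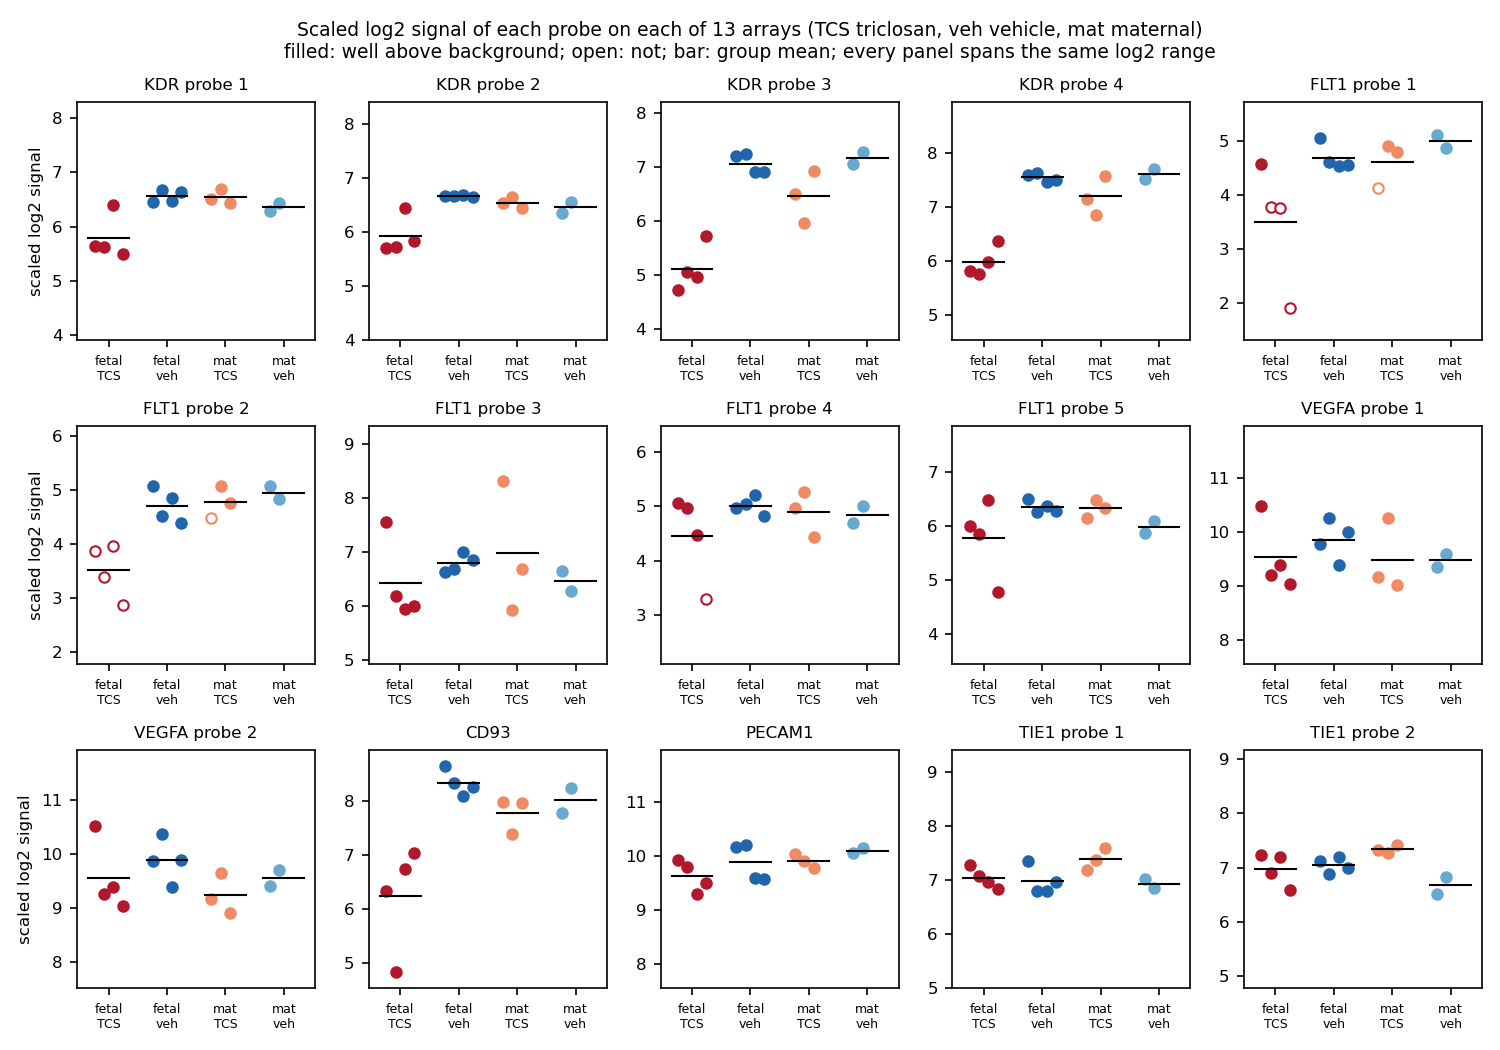
Each panel shows 1 probe, with the scaled log2 signal (vertical axis) of each array by group, filled where well above background and open where not, and a bar at the group mean. The fetal triclosan arrays lie below all fetal vehicle arrays for the 4 KDR probes, FLT1 probe 2 and CD93, and FLT1 probe 2 is open on all 4 of them.

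The ligand did not pass the test. VEGFA probe 1 had 10.48, 9.20, 9.39 and 9.04 with fetal triclosan, against 9.77, 10.25, 9.39 and 9.99 with fetal vehicle. The groups overlapped, and fetal triclosan 1 was above every vehicle array while the other 3 lay at or below the lowest vehicle array. The log2 difference was -0.32 (95% interval -1.08 to 0.44), and that of probe 2, shifted by 1 base, was -0.33 (-1.02 to 0.35). Within slides the sign was not shared: probe 1 was 0.71 higher with triclosan on slide 1, and its differences were -1.05 and -0.30 on slides 2 and 3.

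PECAM1 had 9.93, 9.80, 9.30 and 9.49 with fetal triclosan, against 10.17, 10.20, 9.59 and 9.58 with fetal vehicle. The groups overlapped as pooled values, but arrays on slides 1 and 2 were brighter than those on slide 3 in both groups, and the difference was -0.24, -0.40 and -0.29 within slides 1, 2 and 3. The pooled log2 difference was -0.26 (95% interval -0.66 to 0.15, limma adjusted p = 0.368), and with the slide as a block it was -0.29 with an adjusted p of 0.103. Under median scaling it was -0.04.

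TIE1 gave no call in the direct arm. Probe 1 had 7.28, 7.08, 6.96 and 6.84 with fetal triclosan, against 7.35, 6.79, 6.80 and 6.97 with fetal vehicle. Probe 2 had 7.23, 6.90, 7.20 and 6.58 with fetal triclosan, against 7.12, 6.88, 7.20 and 6.99 with fetal vehicle. Both pairs of groups overlapped throughout, and the log2 differences were 0.06 (95% interval -0.28 to 0.40) and -0.07 (-0.40 to 0.27). These intervals do not reach the falls of KDR probes 3 and 4 or of CD93. PECAM1 and TIE1 were well above background on all 13 arrays, which gives no measure of the number of endothelial cells. In a bulk tissue, fewer endothelial cells and less RNA of these genes per cell cannot be told apart.

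The size of the falls was also taken within slides, where the sign follows from the groups not overlapping. On slides 1, 2 and 3 the log2 difference was -1.79, -1.86 and -1.50 for KDR probe 4, and -2.49, -2.18 and -1.95 for KDR probe 3. CD93 had -2.31, -3.50 and -1.43. KDR probe 1 had -0.81, -1.06 and -0.15, so that its difference was smallest on slide 3. Slide 3 holds 1 treated and 2 vehicle arrays, and each of the others 1 of each.

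The direct difference varied with brightness over the whole array, and the fetal triclosan arrays also had the lower median signals given above, so that exposure and an effect of the arrays cannot be told apart in that trend. Ordered by mean signal and cut into 10 equal bins, the probes of the dimmest bin had a median difference of -0.29 and those of the brightest 0.24. KDR probes 1 to 3 belong to bin 3, with a median of -0.25 and 16.4% of its probes called lower, and KDR probe 4 and CD93 belong to bin 4, with a median of -0.28 and 21.5% called lower. Among probes of like brightness, 0.364% had a lower difference than KDR probe 3, 0.728% lower than KDR probe 4 and 0.0728% lower than CD93. For KDR probes 1 and 2 these shares were 13.9% and 15.3%. TIE1, in bin 4, lay above most probes of its brightness, with 78.6% and 67.7% of them lower.

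**Figure D3:**
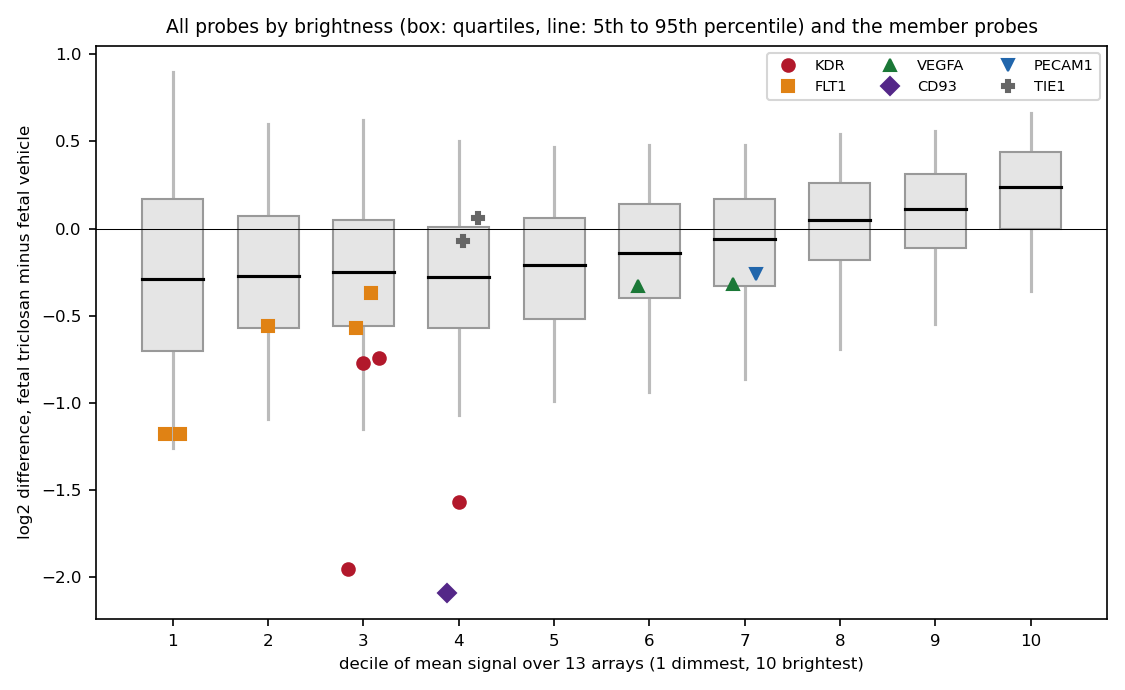
The log2 difference of fetal triclosan minus fetal vehicle (vertical axis) is shown for all probes by bin of mean signal from dim (1) to bright (10) (horizontal axis), as a box of quartiles, a median line and a span from the 5th to the 95th percentile, with the probes of the 6 genes and the 3 described FLT1 probes as symbols. KDR probes 3 and 4 and CD93 lie below the spans of their bins, whereas KDR probes 1 and 2 and all FLT1 probes lie within them.

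Another scaling of the arrays moved these differences together. Under median scaling the median of all probes went to 0.13 from -0.09, and the share of calls that were higher was 69.5% in place of 36.7%, while KDR probe 4 stayed at -1.35 and CD93 at -1.87. With the authors' deposited values KDR probes 1 to 4 had -0.48, -0.48, -1.37 and -1.15 and CD93 had -1.55, all of them called. With normexp correction, which adds an offset that pulls dim probes together, KDR probes 3 and 4 had -0.97 and -0.94 and CD93 had -1.35, also called. TIE1 probe 2 took a positive sign under each of these 3 alternatives (0.15, 0.24 and 0.11), with no call.

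**Figure D4:**
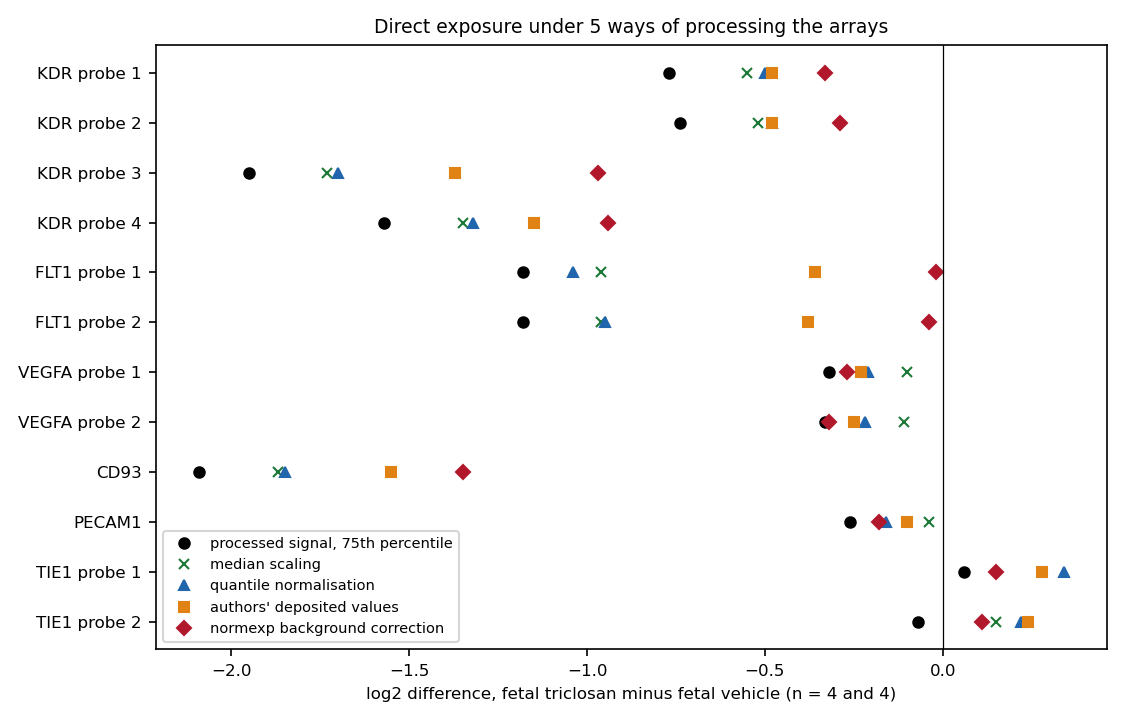
The log2 difference of fetal triclosan minus fetal vehicle (horizontal axis, n = 4 and 4) is shown for the 12 probes under 5 ways of processing the arrays. KDR probes 3 and 4 and CD93 stay at -0.94 or below in all 5, whereas FLT1 lies near 0 with normexp correction.

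The indirect arm asks what differed when triclosan was given to the ewe. Among all probes 0% were called, 0 of 13738 by limma with 1322 at an unadjusted p under 0.05, and 0 of 12 member probes were called with 3 at an unadjusted p under 0.05. KDR probe 3 had 6.50, 5.97 and 6.92 with maternal triclosan, against 7.06 and 7.27 with maternal vehicle. Every treated array was lower, an order that 19.2% of all probes showed in this small arm, and the log2 difference was -0.70 (SE 0.30, limma adjusted p = 0.511). KDR probe 4 had 7.15, 6.86 and 7.58, against 7.52 and 7.70 with maternal vehicle, and a difference of -0.41 (95% interval -0.90 to 0.07). KDR probes 1 and 2 had 0.19 and 0.09.

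CD93 had 7.98, 7.39 and 7.97 with maternal triclosan, against 7.78 and 8.25 with maternal vehicle, groups that overlapped. Its log2 difference was -0.23 (95% interval -1.35 to 0.88). The interval of the direct arm, -2.96 to -1.23, overlaps this one, and the difference between the arms, given below, was not called. FLT1 probes 1 and 2 had -0.38 and -0.18, and maternal triclosan 1 was not well above background for either. VEGFA had 0.0059 and -0.30, and PECAM1 had -0.19. For PECAM1 every treated array was below both vehicle arrays, by 10.04 against 10.05 at the nearest, an order that 19.2% of all probes showed. For KDR probe 1 (0.19) and FLT1 probe 5 (0.35) every treated array was above both vehicle arrays, which 19.5% of all probes showed.

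TIE1 ran the other way in this arm without passing. Probe 2 had 7.33, 7.27 and 7.42 with maternal triclosan, against 6.51 and 6.83 with maternal vehicle. All 3 treated arrays were above both vehicle arrays, as they were for probe 1, which had 7.19, 7.36 and 7.60, against 7.01 and 6.85. That order was shown by 19.5% of all probes in this arm. The log2 differences were 0.67 (95% interval 0.23 to 1.1, limma adjusted p = 0.436) and 0.46 (0.02 to 0.89, adjusted p = 0.511).

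The difference between the arms was tested as direct minus indirect. By limma 0% of all probes were called, 0 of 13738 with 2032 at an unadjusted p under 0.05, and among the members 0 of 12 were called with 7 at an unadjusted p under 0.05. KDR probes 1 to 4 had -0.96, -0.83, -1.25 and -1.16, with a lowest adjusted p of 0.217, and CD93 had -1.86 (95% interval -3.27 to -0.45, adjusted p = 0.269). So the fall of KDR and CD93 in the direct arm is not shown to differ from the indirect arm. Without fetal triclosan 3, KDR probes 1 and 2 stood at the threshold itself (-1.16 and -1.0, each with a limma adjusted p of 0.05 as rounded). FLT1 probe 2 had -1.01 (-1.89 to -0.12, adjusted p = 0.309) and TIE1 probe 2 had -0.74 (-1.29 to -0.18, adjusted p = 0.268). The arms differ in route, dose scale and number of arrays, which cannot be told apart here.

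**Figure D5:**
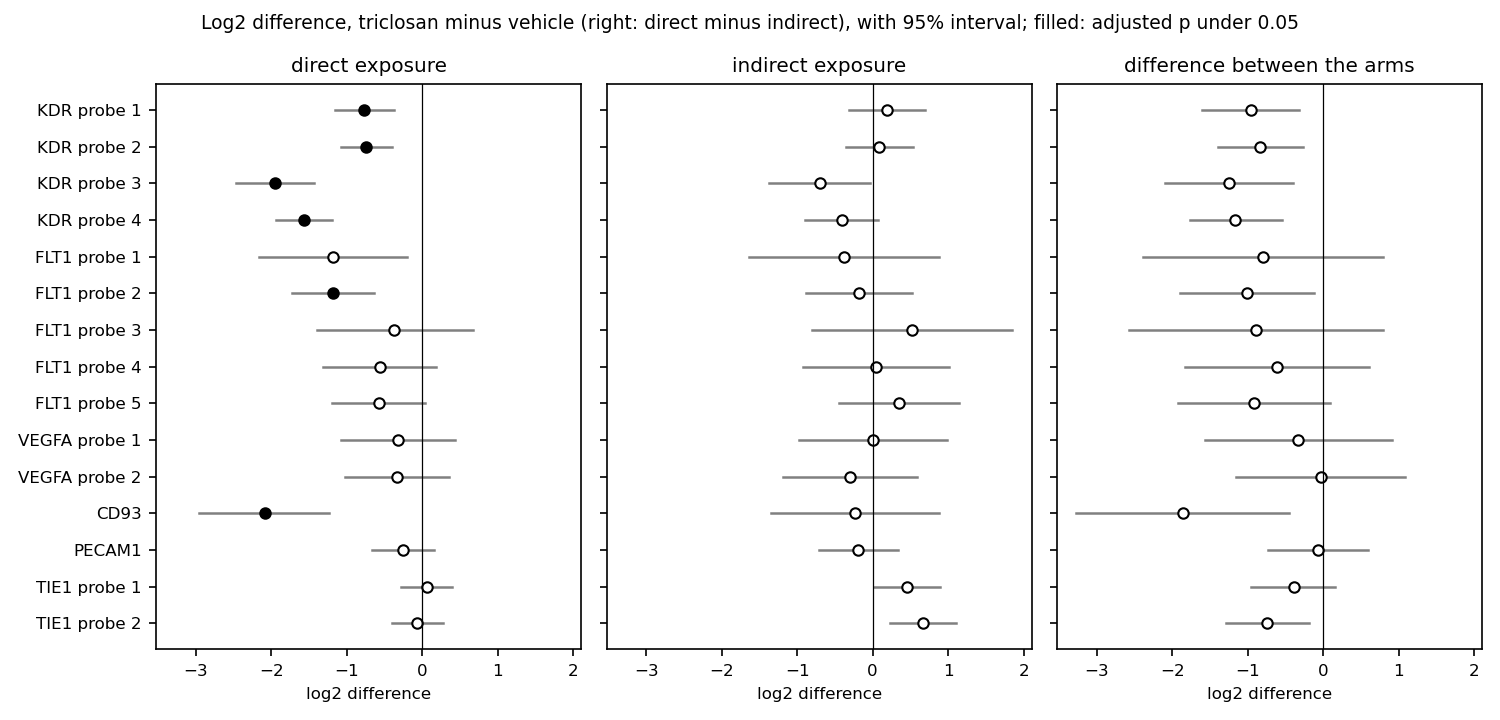
The log2 difference (horizontal axis) with its 95% interval is shown for each probe, as triclosan minus vehicle in the direct and the indirect arm and as direct minus indirect on the right, filled where called. Filled points are the 4 KDR probes, FLT1 probe 2 and CD93 in the direct arm alone, and the intervals of the indirect arm are wider.

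The vehicle groups gave the levels of the 6 genes without triclosan. Between maternal vehicle and fetal vehicle 0% of all probes were called by limma (0 of 13738, with 458 at an unadjusted p under 0.05), and 0 of 12 member probes reached an unadjusted p under 0.05. KDR probe 4 averaged 7.61 ± 0.13 with maternal vehicle (SD, n = 2) and 7.55 ± 0.08 with fetal vehicle (SD, n = 4). CD93 averaged 8.01 ± 0.33 with maternal vehicle and 8.33 ± 0.23 with fetal vehicle. For KDR probe 4 and CD93 the order of group means was fetal triclosan lowest, then maternal triclosan, with the vehicle groups highest and not apart beyond their spread. Maternal triclosan averaged 7.20 ± 0.36 for KDR probe 4 and 7.78 ± 0.34 for CD93 (SD, n = 3). It overlapped maternal vehicle for both, so its place in that order is not shown. KDR probes 1 and 2 did not keep that order, with means of 6.55 and 6.54 for maternal triclosan and of 6.36 and 6.45 for maternal vehicle. VEGFA probe 1 averaged 9.48 ± 0.17 with maternal vehicle and 9.85 ± 0.37 with fetal vehicle, and PECAM1 10.09 ± 0.07 and 9.89 ± 0.34.

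Other genes of the pathway came from lists of the receptors and of their partners, each gene standing by its probe of the highest mean. Of the coreceptors, NRP2, a neuropilin that binds VEGF and semaphorins, fell by 0.97 (SE 0.19, limma adjusted p = 0.00782) by that probe, but 2 other probes named for it had -0.57 and -0.37 and did not pass, and the first had -0.23 with normexp correction. NRP1, the neuropilin of KDR signalling, had 0.24 (SE 0.18). No other VEGF ligand was matched, and 2 probes that the files call PLGF had -0.50 and -0.37, neither called.

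Of the angiopoietin receptors TEK was called and TIE1 was not. TEK, the receptor that binds angiopoietins, lay at 4.55 to 5.15 with fetal triclosan and at 5.91 to 6.61 with fetal vehicle. The groups did not overlap, and the log2 difference was -1.30 (SE 0.26, limma adjusted p = 0.00732), with -1.21 by its second probe. Among the 25 alternatives it fell short only with normexp correction (-0.40). ANGPT2, the angiopoietin that loosens vessels, had -1.08 (SE 0.35, adjusted p = 0.0535), and 2 of its 3 other probes passed, at -1.20 and, for a probe well above background on 10 of 13 arrays and so less exact, -1.41. ANGPT1, which stabilises vessels, had -0.31 (SE 0.34). In the indirect arm TEK had -0.87 by its first probe (SE 0.33, limma adjusted p = 0.466) and only -0.39 (SE 0.32) by the overlapping second.

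Of 44 listed endothelial genes 16 were measured, 5 of them among the 6 genes above, with FLT1 standing there by its probe 3. Of the 11 others, 2 were called lower in the direct arm, 0 higher, which is read beside the 11.6% of all probes called lower and is no result about the list, and their median log2 difference was -0.41, beside -0.09 for all probes. Those called were TEK and JAG1, a Notch ligand, at -0.61 (SE 0.19, limma adjusted p = 0.0495), a call made in 6 of the 12 other ways of processing and in 2 of 13 fits without 1 array. Its other probes had -0.60, not called, and -0.92, called but well above background on only 9 of 13 arrays. NOS3, the endothelial nitric oxide synthase, had -0.41 (SE 0.17, limma adjusted p = 0.127), and ICAM1, a leukocyte adhesion molecule, had -0.54 (SE 0.30). VCAM1, DLL4 and CAV1, named after their values were seen, went the other way, at 0.29, 0.27 and 0.07, none called. A second CAV1 probe had 0.90, also not called. The rest of the 11 had negative differences. CDH5, VWF and CLDN5 were not matched to a probe. The summed signal of the 16 genes was 3155 to 5116 with fetal triclosan and 3954 to 5362 with fetal vehicle, ranges that overlapped.

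Transporters of the blood-brain barrier were called in both directions. SLC2A1, the glucose transporter of brain capillaries, fell by 0.54 (SE 0.12, limma adjusted p = 0.011), with 11.55 to 11.77 on fetal triclosan arrays and 12.06 to 12.36 on fetal vehicle arrays, and SLC7A5, an amino acid transporter, fell by 0.80 (SE 0.24, adjusted p = 0.0409). ABCG2, an efflux pump, rose by 0.46 (SE 0.14, adjusted p = 0.0386). SLC2A1 kept its call in all 25 alternatives but median scaling. SLC7A5 was called in 7 of 12 other ways of processing and in 3 of 13 fits without 1 array, and ABCG2 in 8 and 5. Of the 2 pericyte and smooth muscle genes measured, PDGFB, a growth factor that recruits pericytes, had -0.35 (SE 0.45) by its brightest probe, a further probe was called lower at -1.09, and the remaining one, uncalled, had 0.10. CNN1, a smooth muscle protein, had -0.14 (SE 0.40).

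Some markers of other cells were called in the same samples. Of 6 astrocyte genes 2 were called lower, where 11.6% of all probes were: SLC1A3, a glutamate transporter, at -0.77 (SE 0.17, limma adjusted p = 0.0128), and FGFR3 at -1.61 (SE 0.34, adjusted p = 0.0101), a call lost with normexp correction alone. The other 4 were not called and had both signs, from -0.63 for GFAP to 0.46 for GJA1. The summed astrocyte signal was 109107 to 155350 with fetal triclosan and 106796 to 131712 with fetal vehicle. Of 3 erythroid genes 1, AHSP, was called higher at 0.94 (SE 0.28, limma adjusted p = 0.038), where 921 of all 13738 probes were called higher. The summed signal of the 3 was 19832 to 39287 with fetal triclosan and 7179 to 20880 with fetal vehicle. Of 4 meningeal and matrix genes PTGDS alone was called, higher at 0.55 (SE 0.15), to be read beside the same share of all probes. COL3A1 had -0.72 and COL1A2 -0.42, and the median of the list was -0.06. Their summed signal, to which PTGDS gives most, was 99248 to 129215 with fetal triclosan and 65426 to 105841 with fetal vehicle. AHSP was called in 6 of 13 fits without 1 array and PTGDS in 8, and PTGDS was at 0.10 with the authors' deposited values. The defining hypothalamic peptide genes were present, with all 10 measured ones well above background on every fetal triclosan array and at least 9 on every fetal vehicle array. All 10 had positive differences, from 0.43 for OXT to 2.32 for GHRH with a median of 0.98. By limma 0 of them were called, with 5 at an unadjusted p under 0.05. Of all 13738 probes, 4571 had such a p in the direct arm. The summed signal of the 10 peptide genes was 15946 to 95674 with fetal triclosan and 15631 to 33238 with fetal vehicle. The indirect arm showed such shifts too, with medians of 1.06 for the peptide genes and 1.45 for the erythroid genes, and 0 called in either list. There the summed peptide signal was 41828 to 59495 with maternal triclosan and 19035 to 26817 with maternal vehicle. The part of these cells in the endothelial differences was not tested.

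The genes most like each member over the 13 arrays were named as a description, from 932 named genes. For KDR probe 4 these were MGLUR3, a metabotropic glutamate receptor (r = 0.97), LOC780449 (0.96), PSAP, the precursor of the saposins (0.96), FGFR1 (0.94) and NKX2.2 (0.94). Once group means were removed, r was 0.87 for MGLUR3 and 0.47 for FGFR1. For CD93 they were CTSB, a lysosomal protease (r = 0.95, and 0.90 without group means), SLC25A38, SLC25A11, JUND and PSAP. For FLT1 probe 2 they were ARNT2, a partner of hypoxia-inducible and related factors (r = 0.96, and 0.86 without group means), IGFR1 (0.94), CSNK1E (0.92), TRAF3 (0.90) and a probe named EPAS (0.90). CD93 itself followed KDR probe 4 with r = 0.91 (rho 0.87, and 0.66 without group means).

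VEGFA had another set of neighbours. EDN1, the endothelial vasoconstrictor endothelin 1, stood closest (r = 0.85, rho 0.80, and 0.84 without group means), then SLC2A3, a glucose transporter (0.72), FGF2 (0.71), ANGPT2 under the name ANG-2 (0.65) and BCL2 (0.64). VEGFA did not follow KDR (r = 0.002, rho 0.07, and -0.53 without group means). PECAM1 was nearest to a probe named EPAS (r = 0.77) and to ANG-2 (0.77), and TIE1 to DCN, a matrix proteoglycan (0.82), and TIMP1, a protease inhibitor (0.76). All of these share the same 13 arrays, slides and scaling, so that common array effects enter each value.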

How the data were processed

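Total RNA of fetal hypothalamus was labelled with Cy3 and hybridised to 1-colour Agilent 15k ovine arrays, per the labels' protocols. The authors deposited intensity values, written per the file headers by Agilent Feature Extraction 10.1.1.1, among them a background-subtracted processed signal. The authors' deposited value table gives log2 values of unstated scaling, and limma is named without a role in the submitters' processing notes.

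From the processed signal, log2 was taken, control and outlier-marked spots were left out, each array's 75th percentile was subtracted and the mean 75th percentile of the 13 arrays was added back. limma 3.58.1 (R 4.3.3) fitted group means (residual df 9, prior df 2.387), with two-sided tests and Benjamini-Hochberg adjustment over 13738 probes. On simulated data for direct exposure, 66 of 100 changes of 1 log2 unit and 91 of 100 of 2 were called, with 5 false calls. The simulated noise was independent between probes and arrays, with no slide effect and no shift with brightness. So the simulation gives no rate of false calls for the real arrays. The number of arrays limits the precision. Tables and plots used Python 3.11.15.

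Genes were named through RefSeq (assembly ARS-UI_Ramb_v3.0) for 727 probes by transcript, 497 by symbol, 139 by gene number and 20 by older symbol, with 273 keeping the name in the file and 29 more named from their descriptions. No genome of the files' build was used, so no coordinates are given. The members, the 19 gene lists and the tests were chosen with earlier results of these data known. Every probe of the 6 genes is named. Of each list, genes past the threshold may be named, and of the vessel lists also the 3 with the smallest p, or all where at most 6 were measured. Likeness took the 5 named genes of highest Pearson r. The other probes of a gene are given where they disagree. One result of the blood-brain barrier list, and the counts of that list, are not reported here. Alternatives were normexp correction (offset 50), quantile normalisation, median scaling, the authors' values, other filters, all 14 arrays, 2 groups alone, replicate or slide blocks, and leaving out each array.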

Additional observations from a re-analysis of the deposited data

Results flagged for a closer look

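Among 30 sets of 4 values (15 probes in 2 fetal groups), 4 had an array set apart from the other 3, where chance alone flags about 1 in 20. Fetal triclosan 3 had 6.40 for KDR probe 1, with the other treated arrays at 5.50 to 5.64, and 6.45 for KDR probe 2, with the others at 5.71 to 5.83. These probes overlap, so they count as 1 observation, and on that array the fall of KDR was seen by probes 3 and 4 (4.96 and 5.98). Fetal vehicle 1 had 5.05 for FLT1 probe 1, with the other vehicle arrays at 4.54 to 4.61. Fetal triclosan 1 had 7.56 for FLT1 probe 3, with the others at 5.95 to 6.18.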

How the results depend on the processing

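KDR probes 3 and 4 and CD93 kept their call and sign in the direct arm in all 25 alternatives. The number of member probes called there was 6, and 3 with normexp correction (KDR probes 3 and 4 and CD93), 4 with quantile normalisation, and 6 to 7 without 1 array. Over all probes, 2511 were called in the direct arm, against 1591 with quantile normalisation, 1351 with the maternal arrays left out, and 1251 to 2953 without 1 array (1251 without fetal vehicle 3, 1649 without fetal vehicle 1). In the indirect arm 11 were called with all 14 arrays and 0 to 2 without 1 array. For the difference between the arms 1 was called with quantile normalisation, 7 with all 14 arrays and 0 to 41 without 1 array, the 41 without fetal triclosan 3. Of the member probes 0 to 2 were called there, the 2 at the threshold itself. Between the vehicle groups 0 to 2 were called without 1 array. The causes were not tested. The replicate number as a block (replicate block) gave 2819 calls and 6 member probes in the direct arm and changed no member call. In the direct arm, deviations of arrays numbered 1, 2 and 3, which share slides, correlated best with their own number (0.13, 0.12 and 0.27), and those numbered 4, on different slides, did not (-0.17). In the indirect arm the values were -0.09 and -0.08, so the numbers were not used as pairs.

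No called value changed sign. Values without a call changed sign 8, 7, 17 and 12 times over the alternatives in the direct, indirect, difference and vehicle comparisons. The slide block leaves fetal triclosan 4 without a partner. The main limits are 2 to 4 arrays a group, overlapping probes that repeat each other, dim FLT1 probes, and a shift with brightness in the direct arm.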

Other observations

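Genes upstream and downstream of the receptors were mostly without a call in the direct arm. Of 7 measured genes of the hypoxia response, which drives VEGFA, 1 was called lower (SLC2A1, given above) and 0 higher, where 11.6% of all probes were called lower. The median log2 difference of the 7 was -0.26. HIF1A, EPAS1 and RCAN1 are named after their values were seen. HIF1A, the oxygen-sensitive transcription factor, had 0.40 (SE 0.14, limma adjusted p = 0.0721) and EPAS1, its endothelial relative, had -0.37 (SE 0.17). A probe named EPAS, which was not matched to EPAS1 and is not counted among the 7, was called lower at -0.63 (limma adjusted p = 0.0422). Of 5 measured genes of VEGF receptor signalling 0 were called by limma, with a median of 0.07. RCAN1, an inhibitor of calcineurin that VEGF induces in endothelium, had 0.07 (SE 0.12).

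Of 20 other angiogenic and antiangiogenic factors 1 was called, where 18.3% of all probes were called in either direction. This was CXCL10, a chemokine that restrains vessel growth. It rose by 1.76 (SE 0.52, limma adjusted p = 0.0359), with differences of 1.1, 2.32 and 3.18 within slides 1, 2 and 3. It was called in 11 of 12 other ways of processing but in only 6 of 13 fits without 1 array. The median of the list was -0.06, close to the -0.09 of all probes. In the indirect arm CXCL10 had 0.43 (SE 0.67).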
